A study of Mus musculus with 6 samples.

Results

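Collagen and elastin molecules become load-bearing fibers of the aortic wall only after enzymes have altered them, and 9 genes for such enzymes were described in bulk RNA sequencing of mouse thoracic aorta. They are the 5 lysyl oxidases (Lox, Loxl1, Loxl2, Loxl3 and Loxl4), the 3 lysyl hydroxylases (Plod1, Plod2 and Plod3) and the transglutaminase Tgm2, chosen by name among the 52636 genes of the count table, and each was found as a single row. The study had 6 libraries of whole aorta from mice 12 weeks of age, 4 of WT and 2 labelled KO. The WT mice were untreated C57BL/6J. The KO mice (Tgfbr1/2iSMCKO) carried Tgfbr1f/f, Tgfbr2f/f, Myh11-CreERT2 and the mT/mG reporter, were also of C57BL/6J strain per the labels, and had been given tamoxifen (2 mg daily over 5 days, starting at the age of 11 weeks). No allele, transgene or treatment was shared by both groups, so the effects of receptor deletion, Cre, reporter and tamoxifen cannot be told apart. The Myh11 promoter limits the active Cre to smooth muscle cells (SMCs), and the other cells of the wall, adventitia included, keep both receptors. Myh11-CreERT2 is carried on the Y chromosome, so the KO mice were male. The labels give no date or batch, and the match of table columns to the groups was inferred from column codes.

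Lysyl oxidases are secreted, copper-dependent enzymes that turn lysines of elastin and collagen into reactive aldehydes, and these then condense into the covalent crosslinks between neighboring molecules. Lysyl hydroxylases act earlier, inside the cell, where they hydroxylate lysines of newly made collagen chains, which sets the kind of crosslink that can form and provides the sites to which sugars are attached. Tgm2 makes a different bond, between glutamine and lysine side chains, in substrates such as fibronectin. Mice that lack Lox die around birth with ruptured aortas, and the lysyl oxidase inhibitor BAPN weakens the wall in adults.

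The shared catalytic core of the lysyl oxidases shows how closely they are related. It holds the histidines that bind copper, and the 33 bases that encode this site are given for 4 of the 5 genes, read 5′ to 3′ on the coding strand from GENCODE M21 transcripts (GRCm38), with capitals at the bases that differ from Loxl2.
Loxl1: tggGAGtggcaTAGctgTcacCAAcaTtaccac
Loxl2: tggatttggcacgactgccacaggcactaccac
Loxl3: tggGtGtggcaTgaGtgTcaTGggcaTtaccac
Loxl4: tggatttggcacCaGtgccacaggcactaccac
In each gene the site was split by an intron after base 23 of the 33, with exons numbered in the longest coding transcript. In Loxl2 it lay in exons 10 and 11 on the + strand, at chr14:69682316-69682338 and chr14:69689028-69689037. In Loxl3 it lay in exons 10 and 11 on the + strand, at chr6:83049995-83050017 and chr6:83050116-83050125. In Loxl4 it lay in exons 11 and 12 on the − strand, at chr19:42599877-42599899 and chr19:42598807-42598816. In Loxl1 it lay in exons 3 and 4 on the − strand, at chr9:58294359-58294381 and chr9:58293720-58293729. Loxl4 differed from Loxl2 at 2 of the 33 bases, Loxl3 at 8 and Loxl1 at 11. Over whole transcripts, the longest run of identical bases was 11 to 32 in the 10 pairs of lysyl oxidases, with the longest between Lox and Loxl1, and 15 to 24 in the 3 pairs of lysyl hydroxylases.

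The libraries held between 19650983 and 28860598 estimated counts. Values below are normalized counts, which are estimated counts divided by a DESeq2 size factor, and DESeq2 tested the libraries labelled KO against WT over all genes. SMC markers (Myh11, Acta2, Tagln, Cnn1, Smtn, Lmod1, Des and Myocd) were abundant. Their summed normalized count was 883248 to 1042570 in WT and 838705 and 998245 in KO-1 and KO-2, the libraries labelled KO. Of these markers 0 of 8 passed the test at an adjusted p-value under 0.05, against 10.4% of all genes tested. At an unadjusted p under 0.05 there were 4 of 8, and the share of all genes at that level was not taken. The groups did not overlap for 5 of 8, against 34.3% of all genes tested. Of those 5, Tagln, Cnn1 and Smtn were lower and Myh11 and Des were higher in the libraries labelled KO. Tgfbr1 and Tgfbr2 lay within or above the WT range in the libraries labelled KO: the normalized count of Tgfbr1 ran from 3858 to 5420 in WT and was 5780 and 4568 in KO-1 and KO-2, and that of Tgfbr2 ran from 5327 to 7042 in WT and was 5784 and 5937. These counts cover the whole gene, undeleted exons and Cre-negative cells included, and so check no label. Several marker sums of other cells stood higher in both libraries labelled KO. The 6 fibroblast markers summed to 41998 to 46368 in WT against 58727 and 54568 in KO-1 and KO-2, the 7 endothelial markers to 11666 to 21386 against 30546 and 29521, the 7 macrophage markers to 8288 to 10083 against 14235 and 16456, and the 5 mesothelial markers to 218 to 410 against 805 and 2091. Of these markers, 2 of 6, 3 of 7, 6 of 7 and 5 of 5 passed the test, all higher, against 5.71% of all genes tested. The fibroblast marker Clec3b and the endothelial marker Egfl7 had log2 fold changes of -0.48 each and did not pass. The 5 lymphocyte markers summed to 20.9 to 56.0 in WT against 58.4 and 283 in KO-1 and KO-2, and 0 of 5 passed. Cardiac muscle markers summed to 655 to 1630 in WT against 24059 and 2719 in KO-1 and KO-2, red blood cell markers to 859 to 5990 against 11076 and 61684, and white fat markers to 1020 to 2549 against 2968 and 14685. Brown fat markers (324 to 470 in WT, 436 and 9685) and the mitochondrial share (2.62% to 4.44% in WT, 3.38% and 11.7%) were above the WT range in KO-2 and within it in KO-1. Skeletal muscle and Schwann cell markers were above the WT range in KO-1 and within it in KO-2. The part of these other cells in the values that follow was not tested. In bulk tissue, fewer cells of a type and less RNA per cell cannot be told apart.

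Across the 9 enzymes, 3 passed the DESeq2 test at an adjusted p-value under 0.05, against 10.4% of the 17070 genes tested. Lox was higher in the libraries labelled KO (1 of 9, against 5.71% of all genes tested in that direction), and Loxl3 and Plod2 were lower (2 of 9, against 4.69%). None of the 9 also passed the 2-fold threshold of the study (0 of 9, against 5.64%), and 4 of 9 had an unadjusted p under 0.05. The groups did not overlap for 5 of 9 genes, 4 lower and 1 higher, against 34.3% of all genes tested. The median log2 fold change of the 9 was -0.22, beside 0.01 over all genes tested. With edgeR's quasi-likelihood test, 0 of 9 passed at an adjusted p-value under 0.05 and 4 of 9 had an unadjusted p under 0.05. The share of all genes with an unadjusted p under 0.05 was not taken. Such counts, here and below, therefore have no background to be read against.

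**Figure D1:**
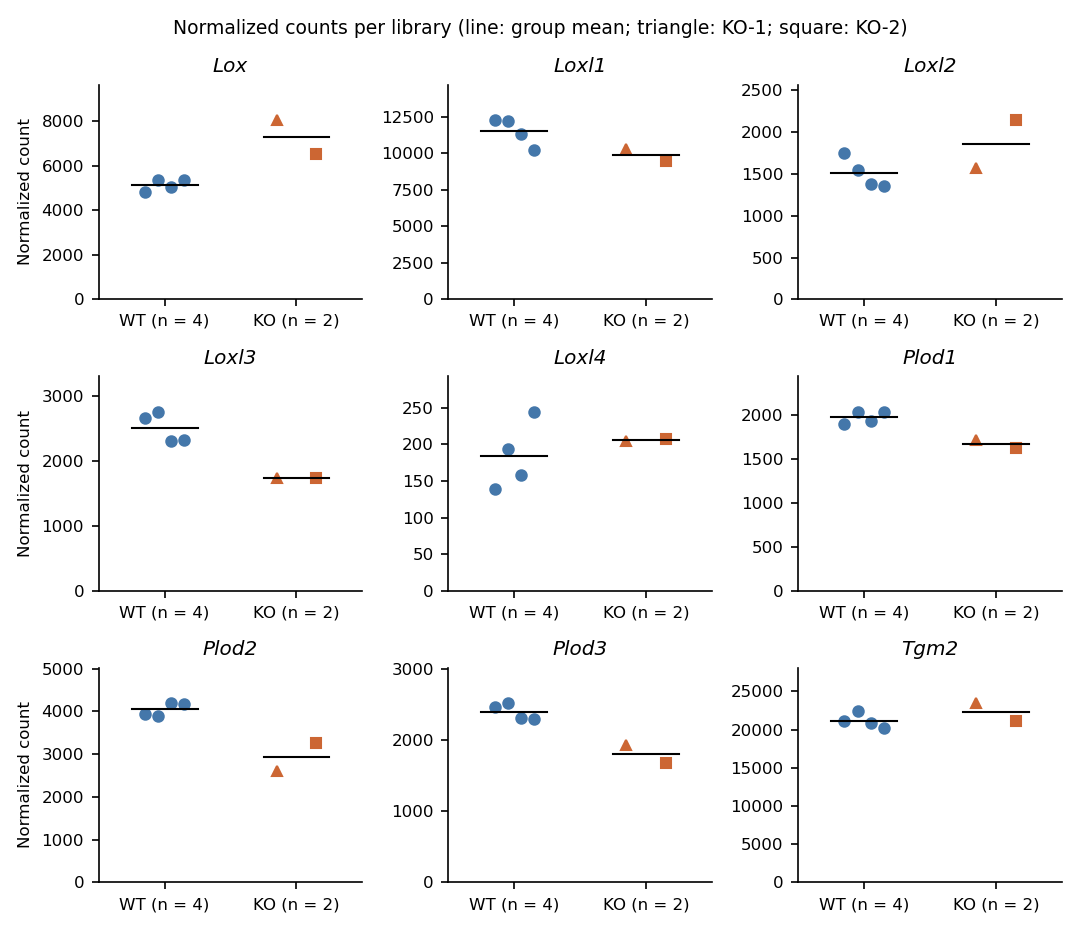
Normalized counts (vertical axes, from 0) of the 9 genes in the 4 WT libraries (circles), KO-1 (triangle) and KO-2 (square), with a line at each group mean. Lox lay above all WT libraries in both libraries labelled KO, and Loxl3, Plod1, Plod2 and Plod3 lay below all of them.

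Lox (ENSMUSG00000024529.13, chr18:52516067-52529867, − strand), the founding member of the family, which crosslinks both elastin and fibrillar collagen, had normalized counts of 4826, 5358, 5075 and 5352 in WT-1 through WT-4, against 8050 and 6521 in KO-1 and KO-2. Both libraries labelled KO were above every WT library, and KO-1 was the higher of them. The log2 fold change was 0.50 ± 0.16 (SE; DESeq2 adjusted p = 0.0262), a 1.41-fold higher level. Against the WT mean, KO-1 was higher by 0.64 and KO-2 by 0.34 on the log2 scale. The call rested on several libraries: the DESeq2 adjusted p was 0.124 without KO-1, 0.0621 without WT-1, 0.0527 without WT-2 and 0.0553 without WT-3. It was 0.0642 with edgeR and 0.124 (log2 fold change 0.36) with a GC trend taken out of each library, Lox being GC-poor at 43.9% of its exon bases. The fibroblast marker sum was also higher in both libraries labelled KO, and its part in the level of Lox was not tested. In isolated SMCs of this model, the study reports Lox among the genes lower after receptor deletion, the opposite direction to whole aorta. Its control SMCs there came from tamoxifen-treated mice with intact receptors. The study ascribes the partial overlap of its isolated-cell and whole-aorta results to many matrix genes being expressed mainly in fibroblasts. Whether this holds for Lox was not tested here.

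Loxl1 (ENSMUSG00000032334.10, chr9:58287738-58313186, − strand), which binds fibulin-5 and is needed to maintain elastic fibers in the adult, had normalized counts of 12274, 12223, 11346 and 10262 in WT-1 through WT-4, against 10329 and 9516 in KO-1 and KO-2. The value of KO-1 lay within the WT range and that of KO-2 below it. With a log2 fold change of -0.22 ± 0.16, Loxl1 did not pass (DESeq2 adjusted p = 0.456, 95% interval -0.52 to 0.09). Its sign turned to 0.08 with a GC trend taken out, and Loxl1 was the most GC-rich of the 9 at 61.0%.

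Loxl2 (ENSMUSG00000034205.16, chr14:69609068-69695834, + strand), a lysyl oxidase with scavenger receptor domains that acts on type IV collagen of basement membranes, had normalized counts of 1757, 1552, 1381 and 1361 in WT-1 through WT-4, against 1574 and 2142 in KO-1 and KO-2. KO-1 lay among the WT libraries and KO-2 above them all. With a log2 fold change of 0.30 ± 0.20, Loxl2 did not pass (DESeq2 adjusted p = 0.421, 95% interval -0.10 to 0.70).

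Loxl3 (ENSMUSG00000000693.10, chr6:83034173-83052562, + strand), which like Loxl2 carries scavenger receptor domains, had normalized counts of 2661, 2760, 2316 and 2323 in WT-1 through WT-4, against 1744 and 1733 in KO-1 and KO-2. The libraries labelled KO were nearly equal to each other and below every WT library. The log2 fold change was -0.53 ± 0.17 (DESeq2 adjusted p = 0.0188), and the separate libraries differed from the WT mean by -0.53 and -0.54 on the log2 scale. The adjusted p was 0.0607 without WT-2, 0.078 without KO-2, 0.0501 with edgeR and 0.0622 with total counts as size factors. Exons of Htra2 on the opposite strand cover 535 of the 4603 exon bases of Loxl3, and whether strand was used in the counting is not stated. Htra2 itself had a normalized count of 371 to 616 in WT and of 462 and 350 in the libraries labelled KO, and it did not pass (log2 change -0.30, adjusted p = 0.573).

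Loxl4 (ENSMUSG00000025185.14, chr19:42593982-42612813, − strand), the least abundant member, had normalized counts of 138, 194, 158 and 244 in WT-1 through WT-4, against 205 and 208 in KO-1 and KO-2. Both libraries labelled KO lay within the WT range. The log2 fold change was 0.17 ± 0.30 (DESeq2 adjusted p = 0.817), with a 95% interval of -0.43 to 0.76. Its coefficient of variation among WT libraries was 25.4%, the highest of the 9, against 3.64% for Plod2, the lowest.

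The 3 lysyl hydroxylases were all lower in both libraries labelled KO than in any WT library, against 34.3% of all genes tested whose groups did not overlap in either direction, and 1 of the 3 passed the test, against 4.69% of all genes called lower. Plod1 (ENSMUSG00000019055.15, chr4:147909753-147936767, − strand), which hydroxylates lysines in the collagen triple helix and is mutated in the kyphoscoliotic form of Ehlers-Danlos syndrome, had normalized counts of 1897, 2040, 1931 and 2041 in WT-1 through WT-4, against 1725 and 1632 in KO-1 and KO-2. Its groups did not overlap, but the log2 fold change of -0.24 ± 0.15 did not pass (DESeq2 adjusted p = 0.388, 95% interval -0.54 to 0.07).

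Plod2 (ENSMUSG00000032374.14, chr9:92542223-92608428, + strand), which hydroxylates lysines of the collagen telopeptides and thereby permits the stable pyridinoline type of crosslink, had normalized counts of 3943, 3900, 4186 and 4163 in WT-1 through WT-4, against 2598 and 3263 in KO-1 and KO-2. The WT libraries were close together, and KO-1 fell further below them than KO-2. The log2 fold change was -0.47 ± 0.17 (DESeq2 adjusted p = 0.0474), a level of 0.724 times WT. Per library the difference from the WT mean was -0.64 in KO-1 and -0.31 in KO-2 on the log2 scale. The log2 fold change was -0.31 without KO-1 and -0.63 without KO-2. The DESeq2 adjusted p was 0.0698, 0.0894, 0.0876 and 0.087 without WT-1, WT-2, WT-3 and WT-4 in turn. It was 0.0732 with edgeR and 0.0734 with total counts as size factors. With a GC trend taken out the log2 fold change was larger, at -0.62 (DESeq2 adjusted p = 0.00198), Plod2 being GC-poor at 43.0%.

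Plod3 (ENSMUSG00000004846.10, chr5:136987019-136996648, + strand), which also transfers glucose to hydroxylysine that carries galactose and is needed for secretion of type IV collagen, had normalized counts of 2459, 2516, 2308 and 2302 in WT-1 through WT-4, against 1934 and 1672 in KO-1 and KO-2. Both libraries labelled KO were below every WT library. At -0.41 ± 0.16 its log2 fold change did not pass (DESeq2 adjusted p = 0.0837), although it did without KO-1 (adjusted p = 0.0142) and with a filter of 10 counts in 2 libraries (adjusted p = 0.0411). Under the other alternatives it did not pass, and its size dropped to -0.30 without KO-2 (adjusted p = 0.317) and to -0.19 with a GC trend taken out (adjusted p = 0.505), Plod3 being GC-rich at 57.8%. Exons of Znhit1 on the opposite strand cover 529 of its 4519 exon bases, and Znhit1 had a log2 fold change of 0.02.

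Tgm2 (ENSMUSG00000037820.15, chr2:158116402-158146436, − strand) had normalized counts of 21137, 22396, 20932 and 20263 in WT-1 through WT-4, against 23443 and 21143 in KO-1 and KO-2. KO-2 lay within the WT range and KO-1 above it. Its log2 fold change of 0.07 ± 0.15 did not pass (DESeq2 adjusted p = 0.835, 95% interval -0.21 to 0.36), and its sign turned without KO-1, to -0.000549. With a GC trend taken out the log2 fold change was 0.27 (DESeq2 adjusted p = 0.193), Tgm2 being GC-rich at 57.1%. Rprd1b on the opposite strand shares 370 of the 4608 exon bases of Tgm2 and varied widely among WT libraries, from 181 to 915 normalized counts.

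**Figure D2:**
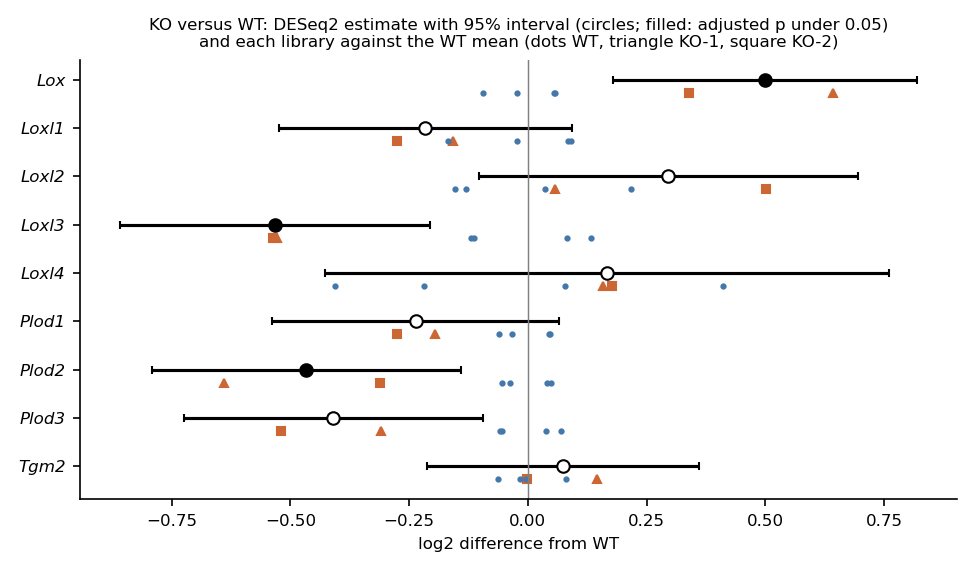
Log2 difference from WT (horizontal axis) for the 9 genes: DESeq2 estimates with their 95% intervals (circles, filled where the adjusted p-value was under 0.05), and below each the separate libraries against the WT mean (dots for WT, triangle for KO-1, square for KO-2). The intervals of Lox, Loxl3, Plod2 and Plod3 exclude 0, and 3 of these passed after adjustment over all genes.

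Levels of different genes were compared within a library, in TPM, computed here as estimated counts per exon length scaled to the same sum over all genes in each library. In WT, Tgm2 was highest at 649 ± 45.2 TPM (SD, n = 4), followed by Loxl1 at 492 ± 29.7, Lox at 153 ± 16.5 and Plod2 at 106 ± 9.19. The WT ranges of these 4 did not overlap, and their order was the same in all 6 libraries. Loxl3 at 77.0 ± 6.47 and Plod3 at 74.8 ± 4.40 overlapped, as did Plod1 at 41.3 ± 3.94 and Loxl2 at 39.3 ± 2.71, and neither pair could be ordered. Loxl4 was lowest in every library, at 6.22 ± 1.91 in WT. In the library labelled KO-2, Loxl2 moved up from place 7 or 8 in WT to place 5, ahead of Loxl3, Plod3 and Plod1.

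By normalized counts per kilobase of exon, the 5 lysyl oxidases summed to 5669, 5761, 5300 and 5047 in WT-1 through WT-4, against 5537 and 5073 in KO-1 and KO-2, so both libraries labelled KO lay within the WT range. Within that sum Lox took 17.8% to 22.2% in WT and 30.4% and 26.9% in KO-1 and KO-2. Loxl1 took 61.7% to 65.7% in WT and 56.6% and 56.9% in the libraries labelled KO, and Loxl3 took 9.49% to 10.4% against 6.84% and 7.42%. The shares of these 3 genes did not overlap between the groups. Lox is the GC-poorest and Loxl1 the GC-richest of the 5, and with a GC trend taken out their log2 fold changes came closer together, at 0.36 and 0.08 in place of 0.50 and -0.22. The shares of Loxl2 (4.82% to 5.74% in WT, 5.26% and 7.81% in KO-1 and KO-2) and Loxl4 (0.579% to 1.15% in WT, 0.878% and 0.972%) overlapped between the groups.

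The sum of the lysyl hydroxylases was below every WT library in both libraries labelled KO. They summed to 1556, 1582, 1573 and 1583 normalized counts per kilobase in WT-1 to WT-4, a spread of 12.6 (SD), and to 1165 and 1216 in KO-1 and KO-2, a log2 difference of -0.40. Plod2 made up 45.7% to 49.4% of the sum in WT and 41.4% and 49.8% in KO-1 and KO-2, and Plod3 made up 32.2% to 35.2% in WT and 36.7% and 30.4%. Plod1, at 18% to 19.1% in WT and 21.9% and 19.8% in the libraries labelled KO, was the one whose share did not overlap between the groups. These sums and shares were formed after the values of the genes were seen and were not tested.

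**Figure D3:**
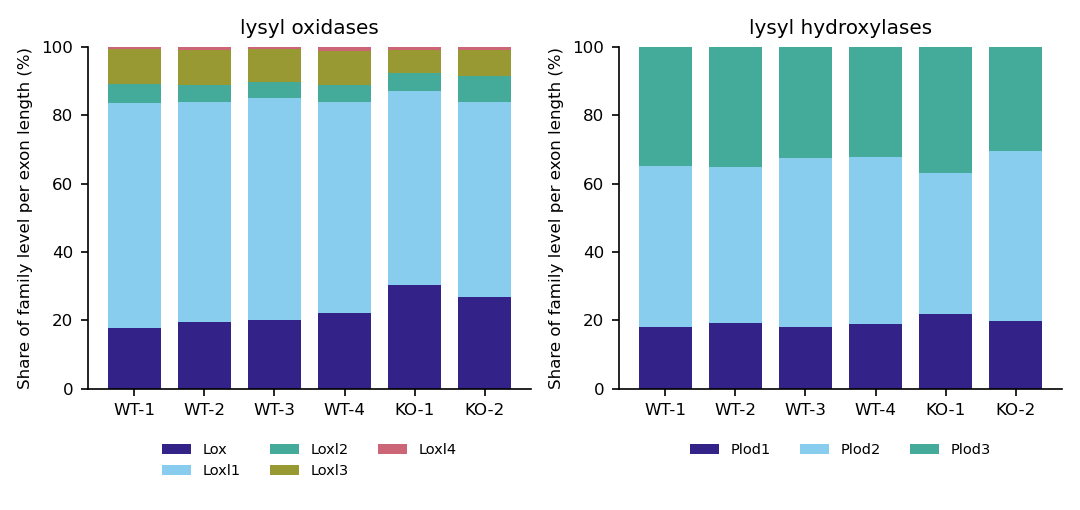
Share of each gene in the summed level of its family per exon length (vertical axis, percent) in each of the 6 libraries, for the 5 lysyl oxidases and the 3 lysyl hydroxylases. Lox took 17.8% to 22.2% of its family in WT and 30.4% and 26.9% in KO-1 and KO-2.

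Each enzyme was next set against a substrate in the same library, per exon length, so that a ratio does not depend on the scaling between libraries. All lysyl oxidases were set against Eln, Loxl2 included, although it is described above as acting on type IV collagen. Eln, which encodes elastin, had normalized counts of 129500, 153244, 98221 and 103680 in WT-1 through WT-4, against 66939 and 113018 in KO-1 and KO-2, and did not pass the test (log2 fold change -0.43 ± 0.25, DESeq2 adjusted p = 0.314). The 3 chains of the main fibrillar collagens, Col1a1, Col1a2 and Col3a1, had log2 fold changes of 0.34, -0.13 and 0.25 and did not pass either. The ratio of Lox to Eln was 0.0632, 0.0593, 0.0876 and 0.0875 in WT-1 through WT-4, against 0.204 and 0.0978 in KO-1 and KO-2, a mean log2 difference of 0.95, with KO-2 only just above the WT range. Loxl2 to Eln was higher by 0.74 on the log2 scale without overlap, although the normalized count of Loxl2 itself lay within the WT range in KO-1. Loxl1 to Eln (0.24), Loxl3 to Eln (-0.07) and Loxl4 to Eln (0.66) overlapped between the groups.

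The ratios of the lysyl hydroxylases to the summed Col1a1, Col1a2 and Col3a1 were all lower in both libraries labelled KO than in any WT library. The mean log2 difference was -0.44 for Plod1, -0.67 for Plod2 and -0.61 for Plod3. The Plod3 ratio was tight in WT (0.0196 to 0.0207) and was 0.0150 and 0.0115 in KO-1 and KO-2. Tgm2 to Fn1, the gene for fibronectin, was 0.830 to 1.03 in WT and 1.79 and 1.43 in KO-1 and KO-2, a log2 difference of 0.82, and of its 2 genes Fn1 passed the DESeq2 test and Tgm2 did not. In a two-sided exact permutation test over the 6 libraries, the 6 ratios without overlap reached p = 0.0667, the smallest the design allows, or 0.1 after Benjamini-Hochberg adjustment over the 9 ratios. Therefore none could pass 0.05.

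**Figure D4:**
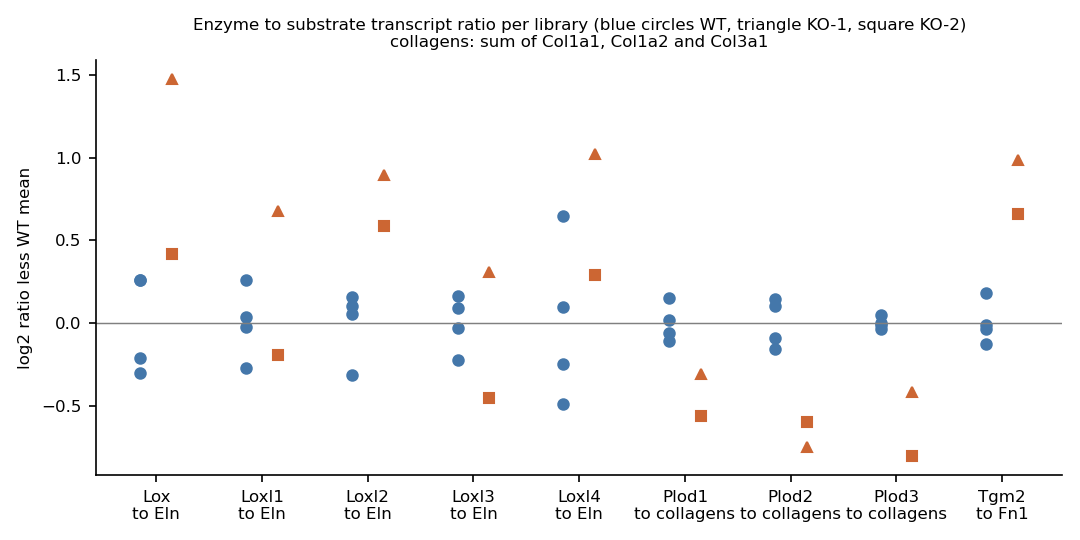
Log2 ratio of each enzyme gene to a substrate gene per exon length, less the WT mean (vertical axis), in the 4 WT libraries (circles), KO-1 (triangle) and KO-2 (square). The 3 lysyl hydroxylase ratios lay below, and the Lox, Loxl2 and Tgm2 ratios above, every WT value in both libraries labelled KO.

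The enzymes act within a longer sequence of collagen and elastin maturation, for which 56 other genes in 7 groups were examined. Of the 49 tested, 19 passed the DESeq2 test at an adjusted p-value under 0.05, 5 in the higher and 14 in the lower direction, against 10.4% of all genes tested in either direction, 5.71% higher and 4.69% lower. Their median log2 fold change was -0.15, and the groups did not overlap for 30 of 49 (21 lower and 9 higher), against 34.3% of all genes tested. With a GC trend taken out, the split of calls was 8 higher and 10 lower. Without KO-1, 24 genes of these groups passed and without KO-2, 15 did. Of the 19, 14 also passed with edgeR.

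Of the 7 transglutaminase genes other than Tgm2, the 2 that were tested were both higher in the libraries labelled KO. F13a1, the A subunit of coagulation factor XIII, had normalized counts of 1607, 1577, 1522 and 1655 in WT-1 through WT-4, against 3279 and 3652 in KO-1 and KO-2, a change of 1.12 ± 0.16 on the log2 scale (DESeq2 adjusted p = 9.1e-11). F13a1 is known to be expressed by macrophages, and the macrophage marker sum was also higher in both libraries labelled KO (8288 to 10083 against 14235 and 16456), with 6 of 7 markers past the test. The part of these cells in the F13a1 value was not tested. Tgm3, an epidermal transglutaminase, had 0, 0, 3.0 and 5.22 normalized counts in WT and 23.5 and 47.9 in KO-1 and KO-2 (log2 fold change 4.13 ± 1.14, DESeq2 adjusted p = 0.00581), and the adjusted p was 0.0581 without KO-1, while DESeq2 gave none without KO-2.

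Hydroxylation of proline stabilizes the collagen triple helix, and 3 of its 10 genes passed. P3h2, a prolyl 3-hydroxylase that acts on type IV collagen, fell the furthest of these: its normalized counts were 2179, 2698, 2426 and 2499 in WT-1 through WT-4, against 1166 and 1184 in KO-1 and KO-2 (log2 fold change -1.06 ± 0.17, DESeq2 adjusted p = 3.1e-08). P3h4, which forms a complex with lysyl hydroxylase Plod1, had a log2 change of -0.70 ± 0.24 (DESeq2 adjusted p = 0.0387), but the adjusted p was 0.397 without KO-2. P4ha3, a catalytic subunit of prolyl 4-hydroxylase, was higher, at 7.69 to 18.8 normalized counts in WT and 56.1 and 140.1 in KO-1 and KO-2 (log2 fold change 2.78 ± 0.58, DESeq2 adjusted p = 8.31e-05), and had an adjusted p of 0.120 without KO-2. The subunits P4ha1, P4ha2 and P4hb did not pass, with log2 fold changes of 0.22, -0.10 and -0.45.

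Among the 8 genes for glycosylation of hydroxylysine and for collagen chaperones, 2 passed and both were lower. Colgalt1 transfers galactose to the hydroxylysines that lysyl hydroxylases make, and had normalized counts of 4227, 4609, 4185 and 4061 in WT-1 through WT-4, against 2905 and 2630 in KO-1 and KO-2 (log2 fold change -0.63 ± 0.15, DESeq2 adjusted p = 0.00133). Fkbp10, a chaperone on which the activity of Plod2 depends, had 4168, 4396, 4234 and 3752 in WT and 2697 and 2901 in the libraries labelled KO (log2 fold change -0.56 ± 0.16, DESeq2 adjusted p = 0.00571). Both stood below every WT library, as the 3 Plod genes did. Serpinh1, the collagen chaperone Hsp47, spread widely in WT (13860 to 22876) and the libraries labelled KO (20986 and 14347) lay within that range.

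Of the 9 genes for propeptide processing, 7 were tested and 3 passed. Bmp1, the protease that releases active Lox from its precursor and trims procollagen C-termini, was lower, at 5383, 5268, 4156 and 4242 in WT-1 through WT-4, against 3466 and 3002 in KO-1 and KO-2 (log2 fold change -0.56 ± 0.19, DESeq2 adjusted p = 0.0309). Its adjusted p was 0.248 without KO-2 and 0.0782 with edgeR. The procollagen N-proteinases went in different directions: Adamts14 was lower, with a log2 change of -1.39 ± 0.34 (DESeq2 adjusted p = 0.00106; 0.0522 without KO-2) and Adamts2 was higher, with one of 0.52 ± 0.16 (DESeq2 adjusted p = 0.0133; 0.0547 without KO-1). Adamts14 had 173 to 335 normalized counts in WT and 103 and 84.8 in KO-1 and KO-2, and Adamts2 had 7628 to 8648 in WT and 12310 and 10587. Of the 4 genes for copper supply, Cp (ceruloplasmin) was higher by 0.75 ± 0.21 (DESeq2 adjusted p = 0.00745; 0.0581 without KO-2). Atp7a, which loads copper onto lysyl oxidases in the secretory pathway, did not pass (log2 fold change 0.51, adjusted p = 0.347), with 161 to 281 normalized counts in WT and 367 and 229 in the libraries labelled KO.

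Of the 10 genes for matrix proteins grouped here as scaffolds for crosslinking, 5 passed and all 5 were lower, against 4.69% of all genes tested. Not all 10 are known to bind lysyl oxidases. Fn1 and Postn (periostin) bind Bmp1 and assist the activation of Lox. Fn1 had normalized counts of 52164, 63223, 60167 and 61914 in WT-1 through WT-4, against 33144 and 37469 in KO-1 and KO-2 (log2 fold change -0.75 ± 0.16, DESeq2 adjusted p = 0.000115). Postn, named here after its values were seen, had a log2 change of -0.71 ± 0.17 (DESeq2 adjusted p = 0.00122). The log2 change was -1.15 ± 0.21 for Tnxb (tenascin-X; DESeq2 adjusted p = 2.13e-06), -0.86 ± 0.20 for Emilin1 of the elastic fiber (adjusted p = 0.00049) and -0.86 ± 0.16 for the microfibril protein Mfap4 (adjusted p = 3.56e-06). The 2 fibulins that tether lysyl oxidases to elastin did not pass: Efemp2 (fibulin-4) had a log2 fold change of -0.01 (1681 to 2569 normalized counts in WT, 2322 and 1725 in KO-1 and KO-2) and Fbln5 (fibulin-5) of -0.03 (16785 to 20768 in WT, 20382 and 16393). Of the 8 substrate genes, the 3 that passed were lower: the basement membrane chains Col4a1 (-0.56 ± 0.16, DESeq2 adjusted p = 0.0106; 0.111 without KO-2) and Col4a2 (-0.87 ± 0.14, adjusted p = 1.29e-07) and the minor fibrillar chain Col5a2 (-0.51 ± 0.15, adjusted p = 0.0111; 0.0821 without KO-2).

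**Figure D5:**
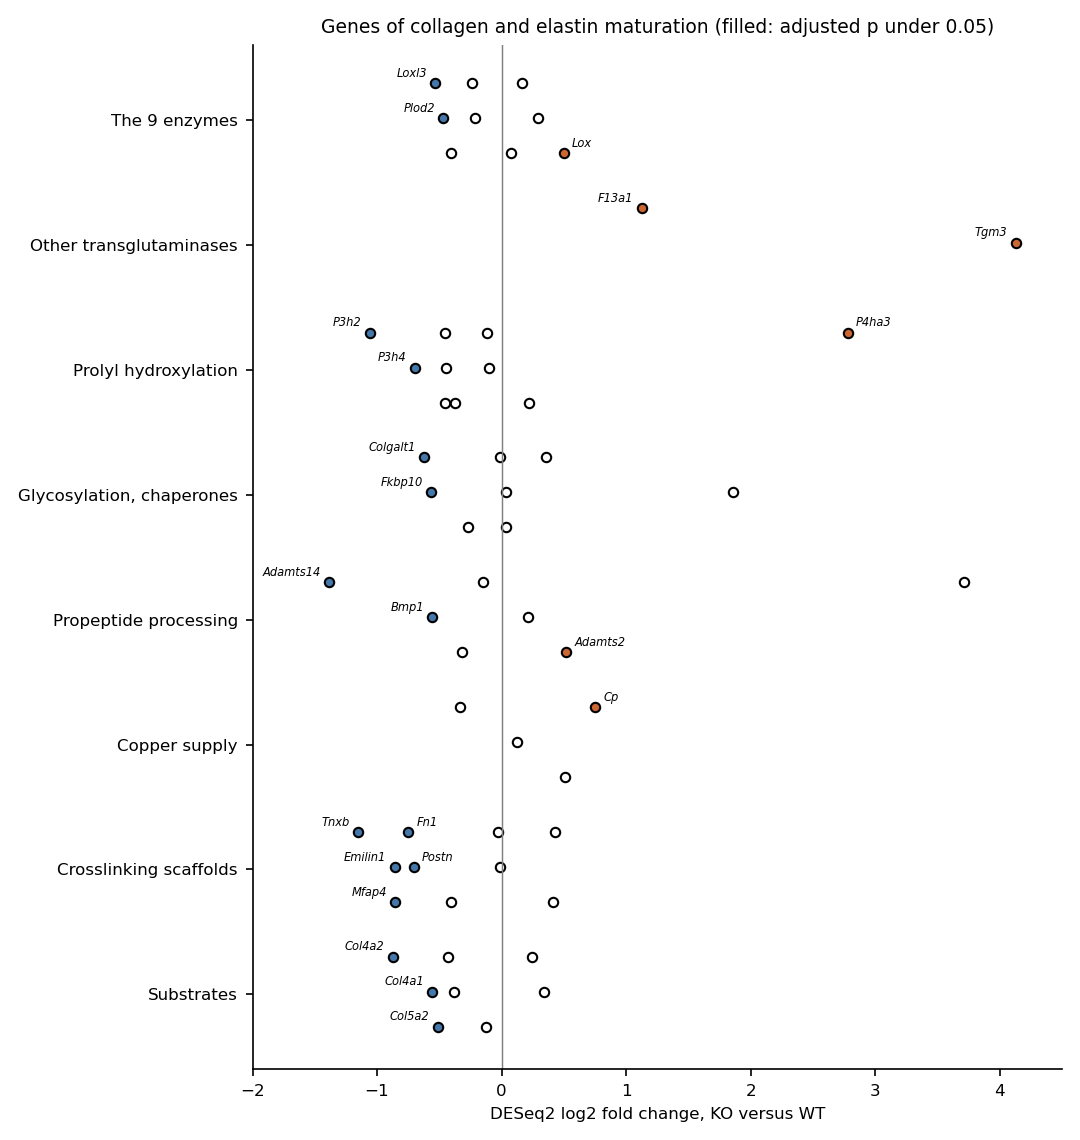
DESeq2 log2 fold change between the libraries labelled KO and WT (horizontal axis) for the 9 enzymes and the tested genes of 7 groups of collagen and elastin maturation, filled and named where the adjusted p-value was under 0.05 (orange higher, blue lower, open not passed). Vertical offsets within a group only separate the points. The 5 scaffold genes that passed lay on the lower side, and both tested transglutaminases lay on the higher side.

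The genes whose profile over the 6 libraries was most like that of each called enzyme were found by the Euclidean distance of log2 normalized counts, less their mean, among 11447 genes with a mean of at least 100. For Lox these were Sptlc2 (distance 0.120), Trim25 (0.121) and Invs (0.123). For Loxl3 they were Yipf3 (0.0919), Bud23 (0.0973) and Kdelr3 (0.106). For Plod2 they were Klf7 (0.0510), Ephx1 (0.159) and Hdac1 (0.161). These distances are a description over libraries of 2 groups.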

How the data were processed

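RNA of whole thoracic aorta was sequenced from 4 WT and 2 KO mice. The authors trimmed the reads (Trim Galore), aligned them by HISAT2 to GRCm38 (mm10) and ran StringTie with the GENCODE M15 annotation. The deposited unit is the estimated count of each gene, a whole number without depth scaling; how coverage became whole numbers, and whether strand was used, is not given in the sources used here. Total counts per library were 19650983 to 28860598. The columns carry codes, and their match to the groups was inferred from the codes; libraries are numbered by the digit that ends each code. Replicates are mice, and p-values cover only the spread between these libraries.

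DESeq2 1.42.0 (R 4.3.3) compared the groups over all genes (Wald test, group as the only term, Benjamini-Hochberg adjustment), with calls at an adjusted p under 0.05 and, for the threshold of the study, a fold above 2. Of 52636 genes, 27151 had no counts, 8415 had counts but no adjusted p, and 17070 were tested. Levels per exon length used GENCODE M21 models on GRCm38, where 52403 identifiers matched and 233 did not. Sequences came from the same annotation. Ratios to substrate genes were compared by exact permutation over libraries. Alternatives were edgeR 4.0.16 (filtered for low counts, or not), TMM or total-count size factors, a filter of 10 counts in 2 libraries, no mitochondrial genes, a test against a 2-fold change, a GC trend taken out, the replicate block, and each library left out. The scripts were tested on simulated data.

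The enzymes and gene lists were chosen with earlier results of these data known. By rule, all 9 enzymes were named, and of the other lists each gene past both thresholds and up to 3 per list past the adjusted p alone. Family sums and shares, and other genes named for contrast, were chosen after their values were seen.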

Additional observations from a re-analysis of the deposited data

How the results depend on the processing

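The calls and fold changes of genes were recomputed under 15 alternatives. The ratios to substrate genes were recomputed only without exon length and with each library left out. Family sums, shares, levels, marker sums and profile distances were not recomputed. Of the fold changes of the 9 enzymes so obtained, 105 kept their direction and side of the threshold, 26 fell short of it, 2 passed it and 2 changed sign (Loxl1 to 0.0811 with a GC trend taken out, and Tgm2, which ranged from -0.000549 without KO-1 to 0.158 without KO-2). The number of the 9 that passed was 3 and became 0 with edgeR with or without a filter (4 at an unadjusted p under 0.05 in each), 0 in the DESeq2 test against a 2-fold change (0 unadjusted) and 1 with total counts as size factors, and 0 to 2 with 1 library left out, WT-2 giving the 0 (4 unadjusted) and WT-1 and WT-3 giving 1 each. The number of pathway genes that passed was 19 and became 12 with edgeR without a filter, 0 in the test against a 2-fold change (2 unadjusted), and 15 to 24 with 1 library left out. Over all genes, calls past both thresholds went from 962 to 633 with edgeR with a filter, 114 in the test against a 2-fold change, and 636 (without KO-2) to 1284 (without KO-1) with 1 library left out. The log2 ratio of Loxl1 to Eln ranged from -0.20 to 0.68 and that of Loxl3 to Eln from -0.46 to 0.31 with 1 library left out; both changed sign on the 2 libraries labelled KO. Exon length cancels in the group difference of a ratio to 1 substrate gene, so leaving it out could change only the 3 lysyl hydroxylase ratios. These kept their direction, at -0.39 for Plod1, -0.63 for Plod2 and -0.57 for Plod3 on the log2 scale. The cause of these changes was not tested.

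With the number in the column code as a replicate block, 0 of the 9 enzymes passed in DESeq2 (1 at an unadjusted p under 0.05), 10 pathway genes did, and 561 of all genes passed both thresholds. In that fit WT-3 and WT-4 were each alone in their block and could not inform the group difference. Deviations of same-numbered libraries had correlations of -0.0722 and 0.0157 over 17070 genes. The deviations of the 2 libraries labelled KO mirror each other, so the 2 correlations cannot decide whether same-numbered libraries were paired. The labels name no pairs. Loxl4 had 138 to 244 normalized counts per library and the other 8 enzymes at least 1361; the part of depth in these results was not tested.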
